A study of Sus scrofa with 19 samples.

Results

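Heat shock proteins and their DNAJ partners were followed across the adrenal glands of 19 weaned male piglets. The members were all probe sets that the array annotation ties to 1 gene symbol beginning with HSPA, HSPB, HSPD, HSPE, HSPH, HSP90, DNAJA, DNAJB or DNAJC. Where a symbol had more than 1 probe set, the one with the highest average over the 19 arrays stood for the gene. This gave 58 genes of 12218 measured through a probe set with 1 symbol. There were 11 HSP70 and HSP110 genes, 1 HSP90 gene, both subunits of the mitochondrial chaperonin, 6 small heat shock proteins, 3 DNAJA, 11 DNAJB and 22 DNAJC genes. HSPBP1 and HSPBAP1 entered through the HSPB prefix, although neither is a small heat shock protein. Of the 58 genes, 56 passed the filter on low values, and DNAJC5B and HSPBAP1 did not. HSPA1A, HSPA6, HSP90AA1, HSP90B1, DNAJC3 and DNAJB6 had no probe set chosen by this rule and were not analysed here.

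The sows received a control diet or one with fish oil or microalgae from day 75 of gestation. Shortly before farrowing, on day 112, they were given bacterial lipopolysaccharide (LPS), an inflammatory stimulus, or saline. One male piglet per sow was weaned at 21 days and given LPS itself at 28 days, and its whole adrenal gland was taken 2 hours later. All 19 piglets therefore carried the same acute challenge, and no unchallenged piglet was analysed here. The control diet had 3 piglets of saline sows and 3 of LPS sows, the fish oil diet had 4 and 4, and the microalgae diet had 3 and 2. Values are deposited array signals, read here as log2 from their range of 0.263 to 13.504, so a difference of 1 is a doubling. Since different probes bind with different strength, levels were compared between piglets and not between genes.

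Heat shock proteins are molecular chaperones that keep other proteins folded. HSP70 proteins bind exposed stretches of a client and cycle with ATP. DNAJ proteins (HSP40 family) bring clients to HSP70 and trigger its ATPase, while HSP110 proteins and BAG proteins release the nucleotide. Heat, fever and oxidative damage switch on a subset of these genes, including HSPH1, DNAJB1 and HSPB1, through heat shock factor 1, and many other members are expressed constitutively. HSP70 and HSP90 also hold steroid receptors in a form that can bind hormone. In steroid-producing cells the mitochondrial members fold proteins of the organelle in which steroid synthesis begins.

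The arrays were similar to one another, with pairwise correlations from 0.934 to 0.982, medians from 4.38 to 4.52 and interquartile ranges from 2.27 to 2.65. Adrenal cortex and medulla were both represented: the steroid enzyme CYP17A1 had a mean of 12.4 and the chromaffin granule protein CHGB a mean of 10.8. Piglet 24, of the fish oil and LPS group, had the narrowest array (2.27, against 2.39 to 2.65 in the others). It held the lowest value in 17 of the 56 members tested (30.4%), against 14.8% of all probe sets tested. Piglet 7, of the microalgae and LPS group, was lowest in 9 members (16.1% against 7.5% of all). Values without piglet 7 or 24 are given beside the spans and the differences that moved most without them.

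**Figure D1:**
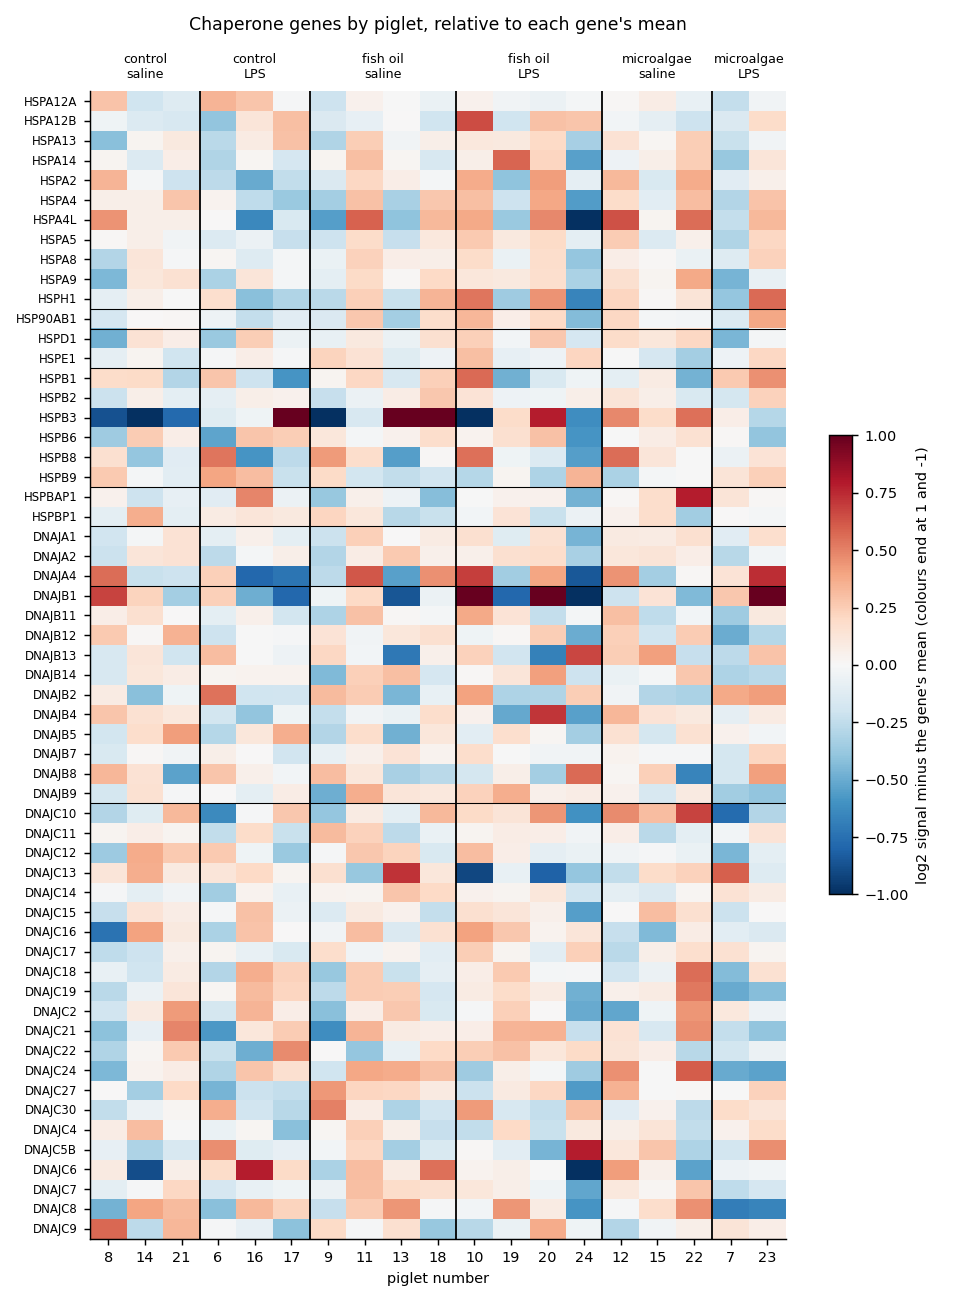
Log2 signal of the 58 genes in each piglet, minus the gene's mean over 19 piglets. Genes are grouped by family (horizontal lines: HSP70 and HSP110, HSP90, chaperonin, small heat shock proteins, HSPBP1 and HSPBAP1, DNAJA, DNAJB, DNAJC) and piglets by maternal diet and challenge (vertical lines). Colours end at 1 and -1; DNAJB1, DNAJA4, HSPA4L and HSPB3 show the widest spread within groups, and piglet 24 is pale to dark blue in many genes.

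After HSPB3, the members that differed most from piglet to piglet were DNAJB1, HSPA4L and DNAJA4. DNAJB1, the main inducible HSP40 of the cytosol, had the second largest spread of all members (SD 0.680 over 19 piglets) and spanned 5.01-fold from the lowest to the highest piglet, or 4.18-fold without piglet 24. In the control diet it read 8.72, 8.27 and 7.71 after saline and 8.29, 7.56 and 7.26 after LPS. In the fish oil diet it read 8.01, 8.25, 7.20 and 7.99 after saline and 9.09, 7.27, 9.26 and 6.94 after LPS. The fish oil and LPS group thus held both the highest and the lowest piglet of the study, with nothing between 7.27 and 9.09. In the microalgae diet DNAJB1 read 7.84, 8.19 and 7.61 after saline and 8.32 and 9.18 after LPS, where the groups did not overlap. Averaged over diets the maternal LPS difference was 0.21 ± 0.296 (SE), with a 95% interval from -0.42 to 0.83.

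HSPH1, the inducible HSP110 that exchanges nucleotide on HSP70, ranged from 9.60 in piglet 24 to 10.83 in piglet 23, 2.34-fold, or 1.98-fold without piglet 24. After saline it read 10.17, 10.32 and 10.26 in control, 9.99, 10.50, 10.04 and 10.60 in fish oil, and 10.47, 10.27 and 10.39 in microalgae. After maternal LPS it read 10.43, 9.84 and 9.96 in control, 10.80, 9.91, 10.71 and 9.60 in fish oil, and 9.88 and 10.83 in microalgae. The piglets of LPS sows lay on both sides of those of saline sows in each diet. HSPA4L, another HSP110 relative, spanned 4.45-fold, from 5.50 in piglet 24 to 7.65 in piglet 12. Without piglet 24 its lowest reading was 6.37 and its span 2.43-fold. DNAJA4, an HSP40 of the DNAJA class, spanned 3.01-fold, from 4.93 in piglet 24 to 6.52 in piglet 23, or 2.87-fold without piglet 24. HSPB1, the small heat shock protein also called HSP27, spanned 2.23-fold, from 9.13 in piglet 17 to 10.29 in piglet 10.

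HSPA8, the housekeeping HSP70 of the cytosol, stayed between 11.59 and 12.20 (SD 0.163), and its second probe set gave a maternal LPS difference as small as that of the first (0.0041 ± 0.105 and -0.0096 ± 0.0957, SE). HSP90AB1, the constitutive HSP90, stayed between 10.02 and 10.85 (SD 0.223). HSPA5, the HSP70 of the endoplasmic reticulum, stayed between 9.91 and 10.47 (SD 0.177). The least variable members were DNAJB7 (SD 0.107), HSPB2 (0.142), DNAJC14 (0.143), DNAJC17 (0.156) and the atypical HSP70 HSPA12A (0.159). The gene identifier of the DNAJB7 probe set carries the symbol DNAJB6 in current RefSeq, so its identity is uncertain. The median SD was 0.256 over the 56 members and 0.262 over all 20668 probe sets tested.

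**Figure D2:**
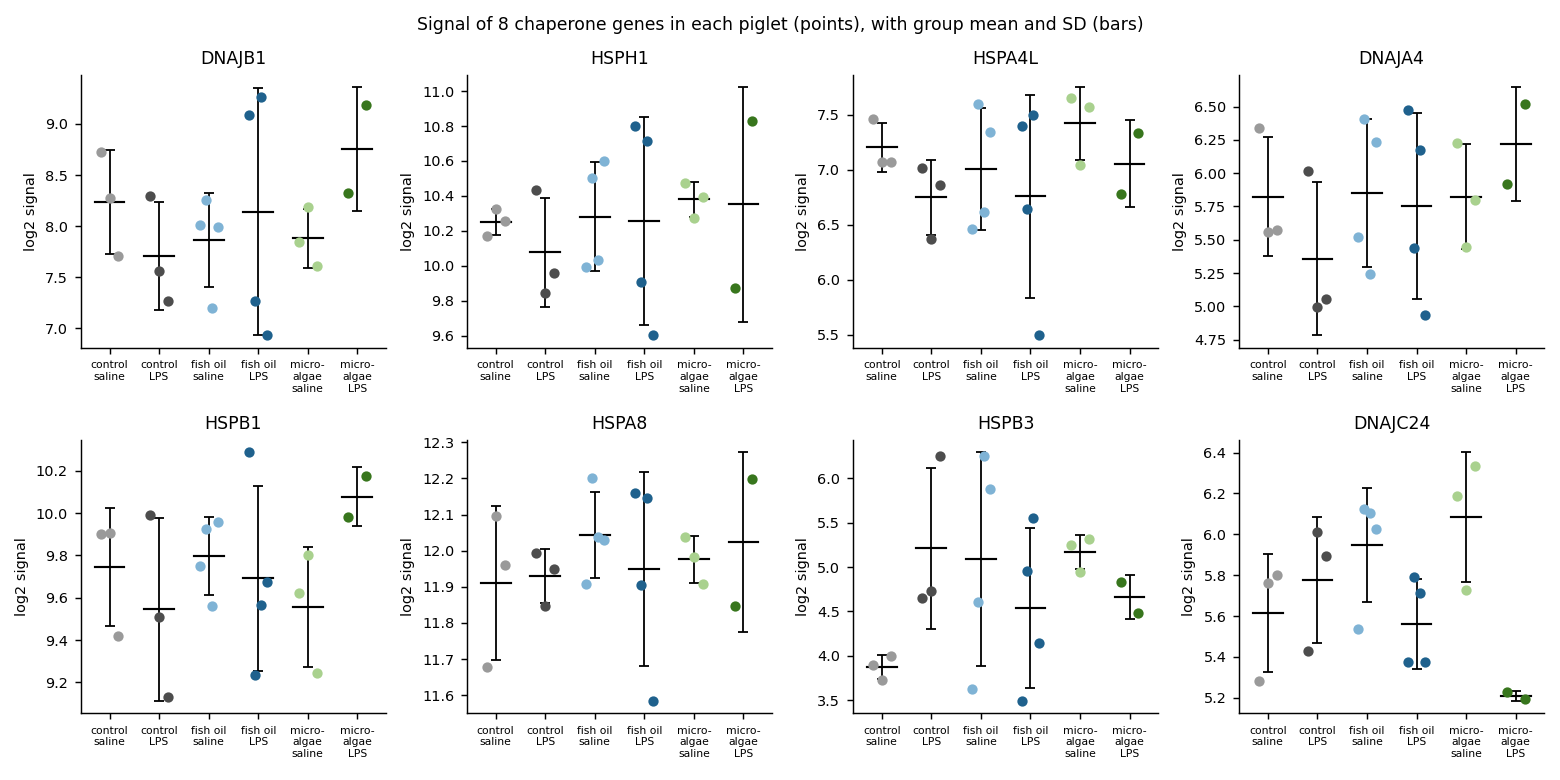
Log2 signal of 8 members in each piglet (points) by maternal diet and challenge, with the group mean (line) and SD (bar). In the fish oil and LPS group, 2 piglets lie above 9 and 2 below 7.3 for DNAJB1. For DNAJC24 both microalgae and LPS piglets lie below all 3 of the microalgae and saline group.

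The study asked first whether a sow's LPS challenge before birth left a mark on her piglet's adrenal gland, and no member passed that test. With limma and Benjamini-Hochberg adjustment over 20668 probe sets, 0 of 56 members reached an adjusted p under 0.05, against 2 probe sets in all (0.00968%). The smallest adjusted p of a member was 0.597. At an unadjusted p under 0.05 there were 5 members (8.93%), against 6.97% of all probe sets, and all 5 were lower after maternal LPS. The median member difference was -0.057 (0.007 over all probe sets), with 21 members higher and 35 lower. That split depended on scaling: 13 members were higher after each array was centred on its median, which moved the median over all probe sets to -0.0378, and 31 were higher with the array's interquartile range as a covariate. By family, 2 of 11 HSP70 and HSP110 genes, 0 of 3 DNAJA, 5 of 11 DNAJB, 7 of 21 DNAJC and 4 of 6 small heat shock proteins lay higher. With the interquartile range as a covariate these were 7 of 11, 2 of 3, 4 of 11, 11 of 21 and 5 of 6. The lower side of the HSP70, DNAJA and DNAJC genes was thus not kept with that covariate. After quantile normalization 2 of 11, 0 of 3 and 8 of 21 of these 3 families lay higher, and after median centring 1 of 11, 0 of 3 and 4 of 21.

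**Figure D3:**
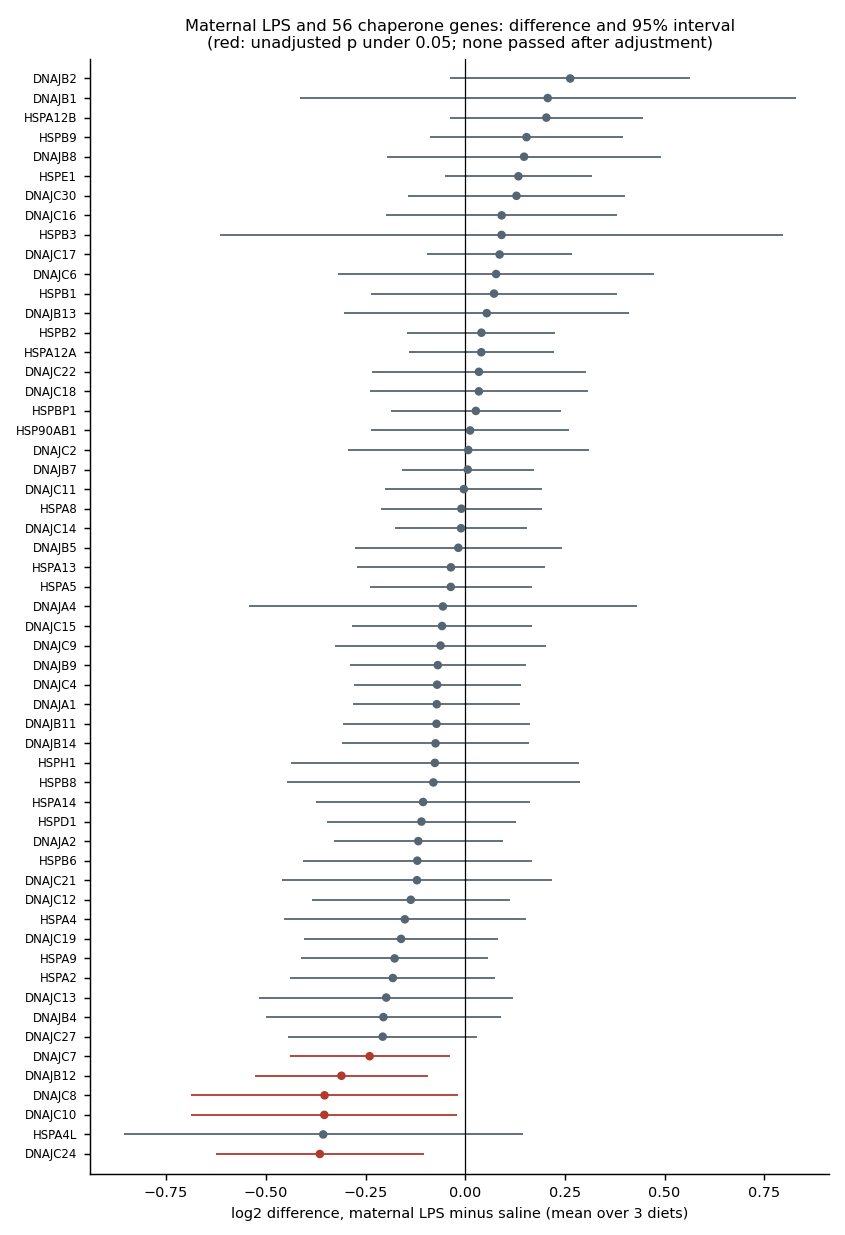
Maternal LPS minus saline, averaged over the 3 diets, for the 56 members tested: log2 difference (points) with the limma 95% interval (lines), ordered by size. The 5 members in red had an unadjusted p under 0.05 and all lie below 0; the intervals of DNAJB1, HSPB3 and HSPA4L are the widest and none of the 56 passed after adjustment.

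Of the core chaperones, HSPD1 differed by -0.11 ± 0.112, HSPE1 by 0.13 ± 0.0881, HSPA9 by -0.18 ± 0.111, HSPA5 by -0.04 ± 0.0965 and HSPB1 by 0.07 ± 0.146 (SE), and none had an unadjusted p under 0.05.

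The 5 lower members were DNAJ proteins with unlike jobs. DNAJC24, a diphthamide synthesis factor that modifies translation elongation factor 2, differed by -0.36 ± 0.124 (SE; limma adjusted p = 0.605). It read 5.28, 5.76 and 5.80 in control after saline and 5.43, 6.01 and 5.89 after LPS. In fish oil it read 5.53, 6.12, 6.10 and 6.03 after saline and 5.37, 5.79, 5.71 and 5.38 after LPS. In microalgae it read 6.19, 5.73 and 6.34 after saline and 5.23 and 5.19 after LPS. The groups overlapped in control and fish oil, and did not overlap in microalgae. DNAJB12, a co-chaperone in the endoplasmic reticulum membrane, differed by -0.31 ± 0.103 (SE; limma adjusted p = 0.597). Its readings were 6.29, 6.04 and 6.38 in control after saline and 5.82, 6.03 and 6.02 after LPS, without overlap. They were 6.17, 6.0, 6.14 and 6.19 against 5.99, 6.04, 6.28 and 5.54 in fish oil, and 6.27, 5.83 and 6.28 against 5.54 and 5.74 in microalgae. The groups therefore overlapped in fish oil and not in microalgae.

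DNAJC10, a disulfide reductase of the endoplasmic reticulum, differed by -0.35 ± 0.159 (SE), the splicing-associated DNAJC8 by -0.35 ± 0.159, and DNAJC7, which binds both HSP70 and HSP90, by -0.24 ± 0.0953. Over the 19 piglets the array median correlated with DNAJC10 at r = -0.83, with DNAJC24 at r = -0.80 and with DNAJC8 at r = -0.73 (Spearman rho -0.82, -0.78 and -0.65). The permutation p-values of these r, adjusted over 169 relations, were 0.00113, 0.00372 and 0.0129, and without piglets 7 and 24, farthest from the median, r was -0.75, -0.75 and -0.61. Correlation with the array median was at or below -0.8 in 5 of 56 members (8.93%), against 1.91% of all probe sets. The 5 were DNAJB12, DNAJC7, DNAJC10, DNAJC21 and DNAJC24, and all but DNAJC21 were among the members lower after maternal LPS. The correlation was at or below -0.7 in 9 members, against 6.59% of all. The array's interquartile range correlated with DNAJC10 at r = 0.71, with DNAJC8 at 0.62 and with DNAJC24 at 0.61 (rho 0.73, 0.56 and 0.61, adjusted permutation p = 0.0113, 0.0441 and 0.0519). The mean relative level of 4 adrenal cortex markers, described with HSPD1, correlated with DNAJC10 at r = 0.64, with DNAJC24 at 0.63 and with DNAJC8 at 0.62 (rho 0.66, 0.54 and 0.41, adjusted permutation p = 0.037, 0.0441 and 0.0495). The part of these measures in the maternal LPS differences was not tested, except for the scalings that follow. The 4 highest array medians, 4.51 to 4.52, belonged to piglets 6, 7, 23 and 24, all of LPS sows. Centring each array on its median gave -0.41 for DNAJC24, -0.36 for DNAJB12 and -0.40 for DNAJC10. The array's interquartile range as a covariate gave -0.25, -0.21 and -0.18. Without piglet 7 the count of members at an unadjusted p under 0.05 went from 5 to 2, and without piglet 24 to 3.

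Within single diets the same comparison rested on 5 to 8 piglets. In control, 1 of 56 members had an unadjusted p under 0.05 (1.79%; 1.74% of all probe sets). In fish oil there were 2 (3.57%; 4.27% of all), DNAJC13 at -0.70 ± 0.227 and DNAJC27 at -0.36 ± 0.168 (SE). DNAJC27 was no longer among them without piglet 24 (-0.21) or without piglet 7, which enters the estimate of the spread (-0.36 with an SE of 0.171), and DNAJC13 was at -0.75 without piglet 24. DNAJC13, which acts on endosomes, read 7.99, 7.45, 8.55 and 7.93 in fish oil after saline and 6.91, 7.75, 7.01 and 7.43 after LPS. The groups overlapped, and the 3 lowest of these 8 readings were of LPS sows. In microalgae 7 members had an unadjusted p under 0.05 (12.5%), close to the 11.7% of all probe sets. They were DNAJC10 (-1.02), DNAJC8 (-0.89), DNAJC24 (-0.87), DNAJC19 (-0.68), DNAJB12 (-0.49) and HSPA9 (-0.46) on the lower side and DNAJB2 (0.61) on the higher. The microalgae and LPS group had 2 piglets, and without piglet 7 the count was 3 (5.36%; 5.8% of all), DNAJC24 (-0.89), DNAJC8 (-0.87) and DNAJC19 (-0.65). DNAJC10 was then at -0.78 and HSPA9 at -0.27. No adjusted p of a member was under 0.05 in any of these 3 within-diet tests.

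Members whose readings did not overlap between LPS and saline were counted in each diet. In control 8 members (14.3%) had all LPS readings on one side of all saline readings, against 5.98% of all probe sets. Of these, 6 were lower after LPS (HSPA2, HSPA4, HSPA4L, HSPA5, DNAJB4 and DNAJB12) and 2 higher (DNAJC6 and HSPB3). In fish oil there were 0 such members (2.18% of all), and in microalgae 23 (41.1%), against 31.6% of all. With 3 and 2 piglets in the microalgae groups such separation was common across the array. The control groups had 3 piglets each, and by limma 1 of 56 members there had an unadjusted p under 0.05 (1.79%; 1.74% of all). No effect is therefore read from the 8 control members.

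HSPB3, a small heat shock protein best known from muscle, was the most variable member (SD 0.842) and the only one whose LPS and saline readings separated in opposite directions in 2 diets. It read 3.90, 3.73 and 3.99 in control after saline and 4.65, 4.73 and 6.26 after LPS, so all 3 piglets of LPS sows were higher. It read 5.25, 4.95 and 5.32 in microalgae after saline and 4.84 and 4.49 after LPS, so both were lower. In fish oil it read 3.62, 4.61, 6.26 and 5.88 after saline and 3.49, 4.95, 5.55 and 4.15 after LPS, which overlapped. How many of all probe sets separate in opposite directions in 2 diets was not counted. Separation in either direction was found in 5.98% of all in control and 31.6% in microalgae. The maternal LPS difference of HSPB3 was 1.34 ± 0.580 (SE) in control. The difference between the microalgae and control effects was -1.85 ± 0.871 (SE; limma adjusted p = 0.858), and that between fish oil and control was -1.89 ± 0.768 (adjusted p = 0.9999), both with an unadjusted p under 0.05. Piglet 17 alone held 6.26 in the control and LPS group. Without it those values were -1.33 and -1.37, and neither had an unadjusted p under 0.05. Of the skeletal muscle markers, MYH1 was near the low end of the array (mean 3.46), and MYLPF (4.17) and ACTA1 (4.47) lay higher. The mean relative level of the 3 measured of 6 skeletal muscle markers correlated with HSPB3 at r = -0.41 (rho -0.36, adjusted permutation p = 0.336), or -0.60 with group means removed. For the smooth muscle markers r was 0.39 (rho 0.34, adjusted permutation p = 0.371), or 0.62 with group means removed.

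Across all members the interaction tests passed nothing. For fish oil against control, 0 of 56 members had an adjusted p under 0.05 (0% of all probe sets) and 2 an unadjusted one (3.57%; 2.64% of all), HSPB3 and the clathrin-uncoating co-chaperone DNAJC6 (-1.02 ± 0.431, SE). In piglet 24 DNAJC6 was at 4.70 while the other 3 of its group lay between 5.69 and 5.76, and without it the difference was -0.76, no longer at an unadjusted p under 0.05. For microalgae against control, 0 had an adjusted p under 0.05 (0% of all) and 4 an unadjusted one (7.14%; 5.41% of all). They were HSPB3, DNAJC24 (-1.04 ± 0.323), DNAJC10 (-0.93 ± 0.412) and DNAJC19 (-0.94 ± 0.300, SE), a subunit of the mitochondrial import motor, each with an adjusted p of 0.858. That count of 4 ranged from 2 to 7 over the 19 fits that left out 1 piglet, with 2 without piglet 7, 17 or 22 and 7 without piglet 6, and array weights also gave 7. Without piglet 7 the differences were -1.05 for DNAJC24, -0.90 for DNAJC19 and -0.69 for DNAJC10, the last no longer at an unadjusted p under 0.05. DNAJC19 also correlated with the array median (r = -0.74, rho -0.66, adjusted permutation p = 0.00845).

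The second question was whether the sow's diet changed these genes, and no diet comparison passed for a member. Fish oil against control gave 0 of 56 by adjusted limma p (0% of all probe sets) and 0 at an unadjusted p under 0.05, where 2.69% of all probe sets lay. Microalgae against control gave 0 (0% of all) and 0 (1.65% of all). Fish oil against microalgae gave 0 (0% of all) and 1 (1.79%; 2.85% of all), DNAJB9, an unfolded protein response co-chaperone of the endoplasmic reticulum, at 0.29 ± 0.128 (SE; limma adjusted p = 0.9999). DNAJB9 in fish oil ranged from 7.14 to 7.99 and in microalgae from 7.23 to 7.72, so the diets overlapped. The median member difference was 0.0531 for fish oil against control, with 39 members higher, and 0.0166 for microalgae, with 31 higher. With the array's interquartile range as a covariate 32 were higher in fish oil. Both comparisons share the control piglets. After centring, 36 members were higher in fish oil than in microalgae, against 29 as deposited.

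The intervals show what sizes these data leave room for. For HSPA8 the 95% interval of fish oil minus control ran from -0.15 to 0.31, and for HSP90AB1 from -0.18 to 0.39. For DNAJB1 it ran from -0.68 to 0.74. Differences between the means of the 6 maternal groups made up 21.9% of the median member's variance over piglets, and 24.4% over all probe sets. These shares were not corrected for the number of groups. With groups this small, shares of such size arise without any effect of diet or challenge, so no effect is read from them.

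Where groups differed little, piglets within a group differed together. Of 11 pairs of known partners listed for comparison, 7 were measured, and 5 of them correlated over the 19 piglets at an adjusted permutation p under 0.05. How often other pairs of probe sets correlate this closely on these arrays was not counted, so the 5 are not read as particular to partners. HSPA9, the mitochondrial HSP70, and HSPD1, the large chaperonin subunit, correlated at r = 0.92 (rho 0.85; permutation p = 1e-05, the smallest 100000 permutations can give, adjusted p = 7e-05). HSPA8 correlated with its co-chaperone DNAJA1 at r = 0.80 (rho 0.74, adjusted p = 0.000163) and with HSPH1 at r = 0.79 (rho 0.84, adjusted p = 0.000163). HSPH1 correlated with DNAJB1 at r = 0.76 (rho 0.64, adjusted p = 0.000367), and HSPB1 with its small heat shock partner CRYAB at r = 0.73 (rho 0.71, adjusted p = 0.00063). Without the 2 piglets farthest from the median of the first gene these r were 0.85, 0.62, 0.83, 0.64 and 0.66, and with group means removed they were between 0.77 and 0.92. HSPA5 and DNAJB9, both targets of the unfolded protein response, did not pass (r = 0.41, rho 0.35, adjusted permutation p = 0.10).

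HSPD1 and HSPE1 encode the barrel and the lid of the mitochondrial chaperonin and are neighbours on chromosome 15 in the RefSeq annotation of Sscrofa11.1, yet their signals were unrelated here (r = 0.0047, rho 0.02, adjusted permutation p = 0.985). HSPD1 was lowest in piglets 8, 7 and 6, at 10.998, 11.02 and 11.11, and between 11.31 and 11.75 in all others. HSPE1 in those 3 piglets was 9.97, 10.01 and 10.04, near its mean of 10.06. HSPE1 was lowest in piglet 22, at 9.72, where HSPD1 was 11.69. HSPA9 followed HSPD1, with 10.02, 9.996 and 10.15 in piglets 8, 7 and 6.

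The mean level of the adrenal cortex markers moved with HSPD1 and HSPA9. Of 10 cortex markers listed, 4 had a probe set of 1 symbol (CYP17A1, HSD3B1, CYP21A2 and the lipoprotein receptor SCARB1), and their mean relative level ranged from -0.51 in piglet 8 to 0.21 in piglet 18. It correlated with HSPD1 at r = 0.91 (rho 0.84) and with HSPA9 at r = 0.89 (rho 0.85), each with an adjusted permutation p of 0.000845 over 169 relations. Both held without piglets 6 and 8, farthest from the median (r = 0.85 for each), and with group means removed (0.93 and 0.91). With HSPE1 the correlation was 0.07 (rho 0.12, adjusted p = 0.92). The 4 markers did not always move together, and single markers were not set against the members. In piglet 22 HSD3B1 (11.66) and SCARB1 (11.84) were above their means of 11.13 and 11.41. CYP21A2 (10.96) and CYP17A1 (12.32) were below theirs of 11.22 and 12.36 in that piglet. Among the 56 members, HSPA9 and HSPD1 were the 2 with r of at least 0.8 to the cortex score (3.57%), against 0.382% of all probe sets. HSPA9 and HSPD1 also correlated with the array median (r = -0.80 and -0.65, rho -0.85 and -0.63, adjusted permutation p = 0.00253 and 0.037). With the array's interquartile range r was 0.70 for HSPA9 and 0.54 for HSPD1 (rho 0.83 and 0.65, adjusted permutation p = 0.0192 and 0.118). The part of the arrays' median and spread in the cortex relation was not tested. The medulla score, the mean relative level of the 4 measured of 8 medulla markers, correlated with HSPD1 at r = -0.58 (rho -0.59, adjusted permutation p = 0.0815). For HSPA9 it was r = -0.43 (rho -0.39, adjusted permutation p = 0.295). In whole glands a smaller share of cortex cells and less RNA per cortex cell cannot be told apart.

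**Figure D4:**
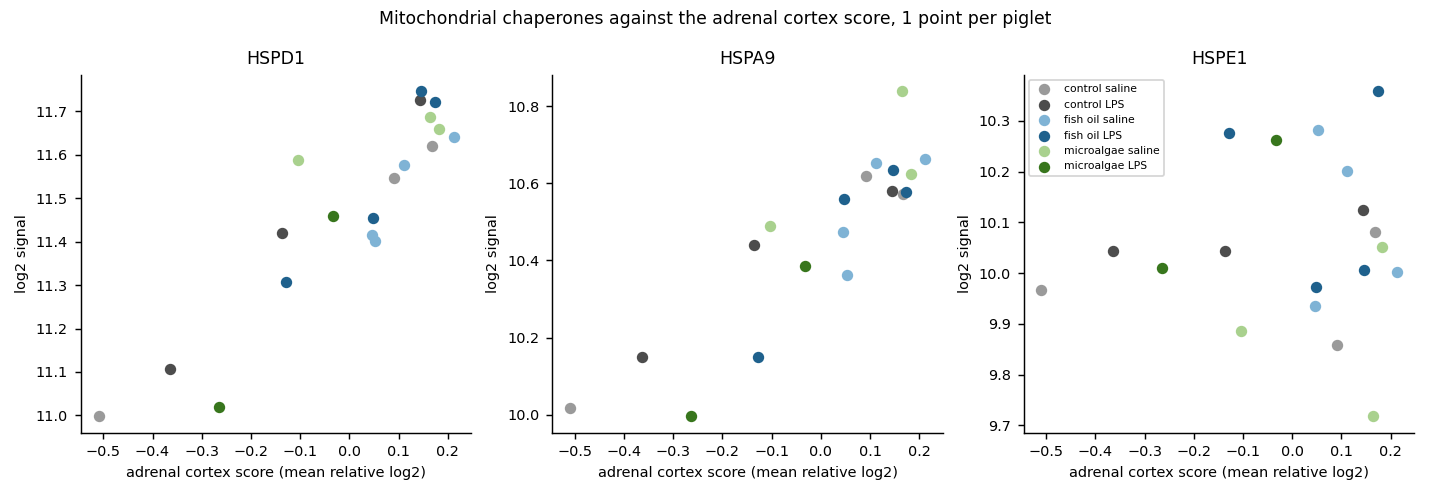
Log2 signal of HSPD1, HSPA9 and HSPE1 in each piglet against the adrenal cortex score, the mean over 4 cortex markers of log2 signal minus the gene's mean. Colours give maternal diet and challenge. HSPD1 and HSPA9 rise with the score (r = 0.91 and 0.89), with piglets 6, 7 and 8 at the low end, and HSPE1 does not (r = 0.07).

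DNAJB1 was then set against every other member, a comparison chosen after its values were seen. Over 19 piglets 7 of 55 members correlated with it at an adjusted permutation p under 0.05. They were DNAJA4 (r = 0.80), HSPH1, HSPB1 (0.69), HSP90AB1 (0.66), HSPA4 (0.65), DNAJB4 (0.63) and HSPA4L (0.62), which are cytosolic chaperones or their HSP110 exchange factors. By Spearman's rho 2 passed, DNAJA4 (0.78, adjusted p = 0.00825) and HSPB1 (0.72, adjusted p = 0.0217). An r of at least 0.6 was found for 12.7% of members and 0.503% of all probe sets, and with group means removed for 16.4% and 1.2%. Without piglet 24, 3 of the 55 members had such an r (5.45%, against 0.861% of all). In that set DNAJA4 (0.76), HSPB1 (0.74) and HSPH1 (0.70) kept an adjusted permutation p under 0.05, and HSP90AB1, HSPA4, DNAJB4 and HSPA4L did not (r from 0.52 to 0.58). Without piglets 20 and 23, farthest from the DNAJB1 median, DNAJA4 (0.78) and HSPB1 (0.81) passed and HSPH1 (0.65, adjusted p = 0.0704) did not.

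**Figure D5:**
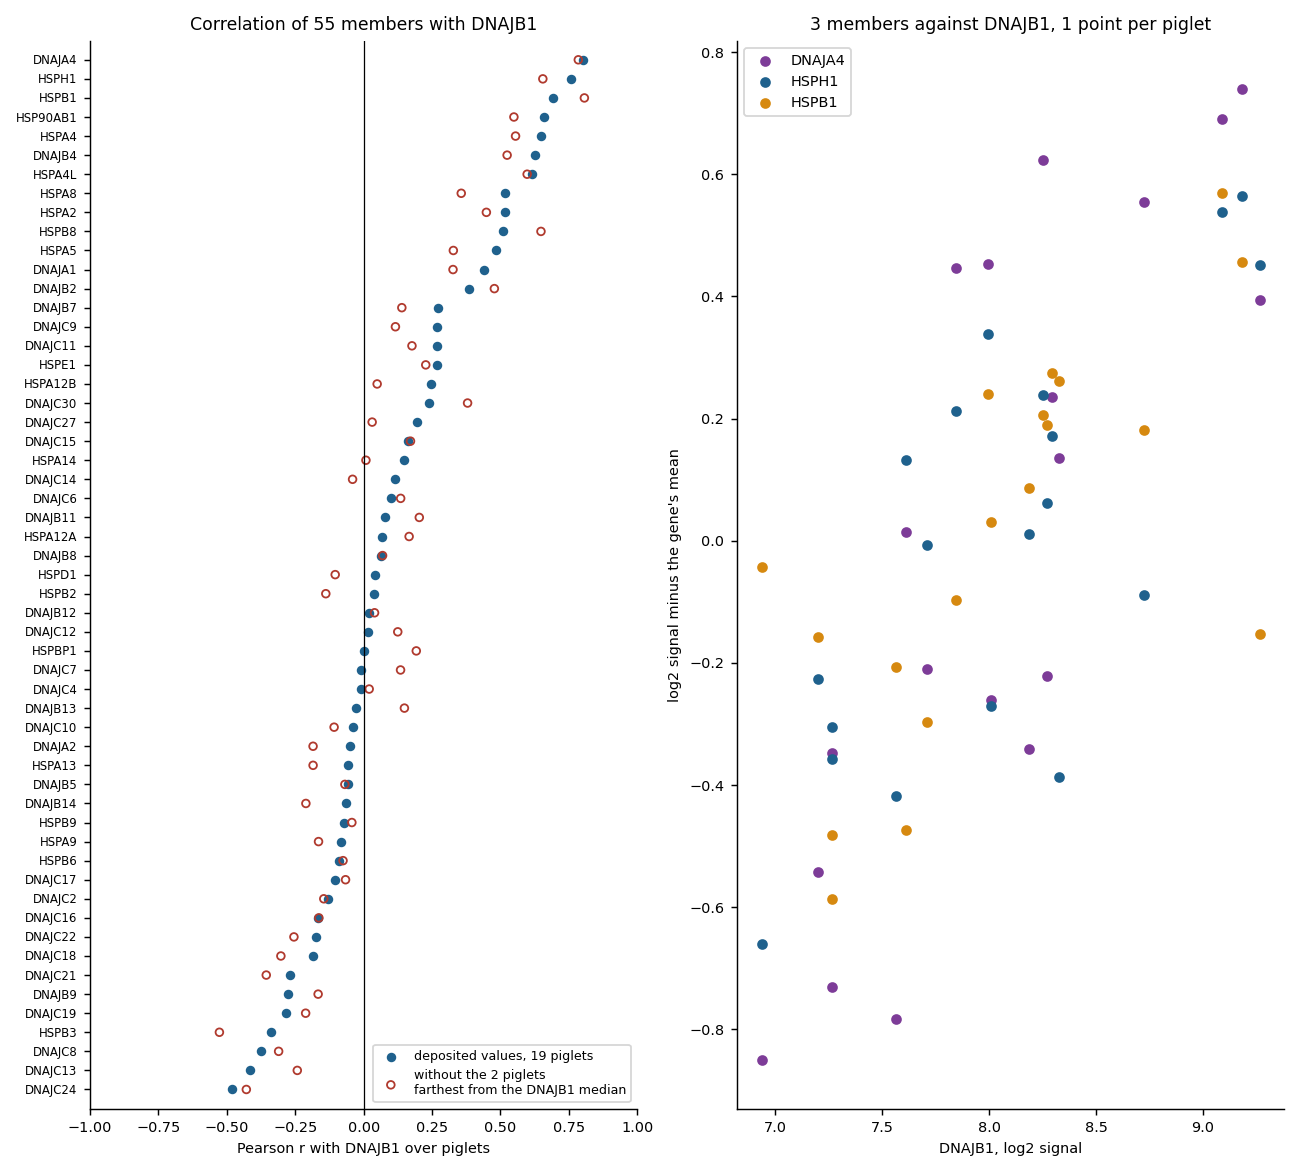
Left, Pearson r of 55 members with DNAJB1 over 19 piglets (filled) and without the 2 piglets farthest from the DNAJB1 median (open). Right, DNAJA4, HSPH1 and HSPB1 in each piglet, minus the gene's mean, against DNAJB1 (log2 signal). DNAJA4 is highest at r = 0.80 and DNAJC24 lowest at -0.48.

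At the other end, DNAJC24 (r = -0.48) and DNAJC13 (r = -0.42) had the most negative values of the 55, neither with an adjusted permutation p under 0.05 as deposited. Without piglet 24 r was -0.65 for DNAJC24 (adjusted permutation p = 0.0544), and without piglets 20 and 23 it was -0.43 (adjusted permutation p = 0.399). With group means removed, planned as a description, r was -0.66 for DNAJC13 (adjusted permutation p = 0.0159) and -0.33 for DNAJC24 (adjusted permutation p = 0.553). That permutation took no account of the group means already removed. The array's spread did not follow DNAJB1 (r = 0.15), and neither did the cortex (r = -0.08) or medulla (r = 0.03) scores.

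Among all probe sets with 1 symbol, ranked by r with DNAJB1 over the 19 piglets, the nearest was the kinase gene RPS6KA1 (r = 0.88), followed by ZFAND2A (r = 0.86), a heat- and arsenite-inducible proteasome adaptor, and DNAJA4. The polyubiquitin gene UBB lay further down (r = 0.73). Of the heat shock and co-chaperone genes that the prefixes do not cover, CRYAB (r = 0.75, rho 0.74, adjusted permutation p = 0.014) passed. The TRiC subunit CCT7 (0.65), the HSP90 immunophilin FKBP4 (0.64) and the HSP70 exchange factor BAG3 (0.63) had an adjusted p of 0.0526 each.

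The related pathway genes gave no call in the maternal comparisons. Among 19 heat shock factors and co-chaperones outside the prefixes, 0 passed for maternal LPS and 9 lay higher. Heat shock factor HSF1 differed by -0.06 ± 0.0923 and BAG3 by -0.16 ± 0.210 (SE). CRYAB, FKBP4, FKBP5, SERPINH1, TRAP1 and HSF2 differed by 0.03 to 0.13. All 9 TRiC and prefoldin subunits, which fold actin and tubulin, lay lower after maternal LPS as deposited and after median centring, with a deposited median of -0.0848 and 0 calls. After quantile normalization 3 of the 9 lay higher, and with the array's interquartile range as a covariate 6 did, with a median of 0.0185. Among 19 genes of endoplasmic reticulum folding 0 passed and 6 lay higher, or 11 with that covariate. CRELD2, a gene induced by unfolded protein stress, differed by 0.34 ± 0.141 (SE; limma adjusted p = 0.687), and the transcription factor gene XBP1 differed by -0.10 ± 0.105. Among 7 mitochondrial folding and protease genes 0 passed and 2 lay higher. In the diet and interaction comparisons the 4 lists likewise held 0 genes with a limma adjusted p under 0.05.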

How the data were processed

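Total RNA of 19 whole adrenal glands was labelled for 1-colour Affymetrix arrays, per the labels' protocols. Transcriptome Analysis Console 4.0 is named in the submitters' processing notes. The deposited values are log2 signals per probe set; the log base was read from their range, and background correction, normalization and summarization are not given in the sources used here. Symbols came from the platform annotation (13157 of 27558 probe sets with 1 symbol, 523 with several, 13878 with none), and all 58 member identifiers were found in RefSeq.

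Probe sets in the lowest 25% by mean (under 3.23) were left out, leaving 20668. limma 3.58.1 in R 4.3.3 fitted 1 mean per group (lmFit, eBayes with an intensity trend, 13 residual degrees of freedom), two-sided, with Benjamini-Hochberg adjustment and a threshold of 0.05; the script was tested on simulated data. Correlations used 100000 permutations (two-sided; numpy 2.4.6), adjusted within each family. Each piglet came from its own sow, and precision is limited by how many arrays there were. No batch or date is given in the sources used here.

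Members and lists were chosen with earlier results of these data known. Genes were named by a rule: core chaperones, up to 5 members each way at an unadjusted p under 0.05 per comparison, the 5 most and 5 least variable, and core pathway genes. Genes named for overlap or for likeness to DNAJB1 were chosen after their values were seen. Promoter sequences were not used here.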

Additional observations from a re-analysis of the deposited data

Results flagged for a closer look

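In 68 groups of 4 piglets examined for 34 named members, 5 readings stood apart from the other 3 of their group (gap over range above Dixon's 95% critical value). Chance sets about 1 group in 20 apart, a rate that does not hold here for members named from these same values. In the fish oil and LPS group piglet 24 was lowest for DNAJC6 (4.70, ratio 0.939), HSPA9 (10.15, ratio 0.845) and DNAJC19 (6.02, ratio 0.839). Piglet 10 of that group was highest for DNAJB7 (7.69, ratio 0.851). In the fish oil and saline group piglet 9 was lowest for DNAJC24 (5.53, ratio 0.837).

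The HSPB3 readings of LPS sows' piglets were all above those of saline sows in control and all below in microalgae, and the microalgae effect minus the control effect was -1.85 on the log2 scale. The test of that difference had a limma adjusted p of 0.858. The share of all probe sets that separate in opposite directions in these diets was not counted.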

How the results depend on the processing

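The count of members with a limma adjusted p under 0.05 was 0 in all 6 comparisons and stayed 0 under every alternative run: quantile normalization, median centring, no filter or a 50% filter, array weights, an additive model (for the 4 comparisons without an interaction), no intensity trend, no moderation, array spread or medulla score as covariate, the most variable probe set per gene, and leaving out each of the 19 piglets in turn. The unadjusted maternal LPS count ranged from 2 to 7 over the left-out piglets, and so did that of the microalgae interaction. The HSPD1 and HSPE1 correlation turned to -0.19 after quantile normalization and to -0.15 without the 2 farthest piglets; neither passed. The HSPA5 and DNAJB9 correlation rose to 0.55 after median centring (adjusted permutation p = 0.0188), past the threshold; the cause was not tested. Of the 7 correlations with DNAJB1, 4 lost their adjusted p without piglet 24 and 5 without piglets 20 and 23. The negative correlation of DNAJC24 with DNAJB1 passed after quantile normalization (r = -0.61, adjusted permutation p = 0.0444). It did not after median centring (r = -0.39, adjusted permutation p = 0.381). No paired analysis was possible because piglet numbers are not shared between groups. Groups of 2 to 4 piglets limit what can be detected, and members near the filter have readings close to the low end of the array.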
